A study of Saccharomyces cerevisiae with 18 samples.

Results

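The genes described here are 46 genes of *Saccharomyces cerevisiae* amino acid metabolism. Of these, 45 encode biosynthetic enzymes, and *GCN4* encodes a transcriptional activator of genes in nearly every biosynthetic pathway. They were taken by gene name from the annotation of the array, among 5469 probe sets of this yeast with 1 gene symbol. Each of the 46 had 1 probe set, which lay above background on all 18 arrays. The enzymes fall into 7 pathways, with 6 genes for arginine, 6 for histidine, 9 for the branched-chain amino acids, 7 for lysine, 9 for the aromatic amino acids, 5 for threonine and 3 for asparagine and glutamate.

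RNA came from 4 strains of the Sigma1278b background. KV63 and KV473 carry the label of a *FLO11* deletion mutant, and KV68 and KV2668 that of wild-type, *FLO11* being the gene of a cell-surface adhesin. Colonies of all 4 strains were taken from solid medium, liquid cultures came from KV473 and KV2668, and each of these 6 combinations has 3 arrays. Colonies were 5 days old and grown on YPS, a rich medium of yeast extract, peptone and sucrose, at 30°C. The growth text deposited with the liquid cultures is the same as for the colonies, so the age of the liquid cultures is not known here. The labels do not say that replicates were separate cultures, and p-values then measure only the spread between these samples, which may be technical.

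Yeast makes all of these amino acids itself, and can take them up when the medium supplies them, as peptone and yeast extract do. When any amino acid runs short, uncharged tRNA activates the kinase Gcn2, and translation of *GCN4* mRNA is raised through short reading frames in its leader, so that Gcn4 protein can change without its mRNA. Gcn4 then activates genes in nearly every biosynthetic pathway at once, a response named general amino acid control, on top of which single pathways have regulators of their own, such as Leu3 for leucine and Lys14 for lysine. The arrays measured mRNA only.

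Values are log2 intensities as deposited, and differences are on that log2 scale. A gene was called changed at a limma adjusted p under 0.05 together with an absolute log2 difference over 1, and counts of calls are read against the share of all 5424 tested probe sets called in the same comparison. Levels were not compared between genes, since probe sets differ in brightness. In RNA of whole cultures, fewer cells of a kind and less RNA per cell cannot be told apart.

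*FLO11* RNA ran against the labels, at 12.76 to 13.31 on the 9 arrays of KV63 and KV473 and 4.65 to 5.43 on the 9 arrays of KV68 and KV2668, and the strains are therefore called by name below, with genotypes only as labelled. Mating-type genes separated the strains too. The mean of 7 a-cell genes was 9.52 to 10.39 on the arrays of KV2668 and 6.11 to 7.92 on those of KV473, and the mean of 5 alpha-cell genes was 6.80 to 7.86 and 11.52 to 12.44. Of the 462 probe sets of chromosome XII, the median difference of KV2668 from KV473 was 0.81 in colonies and 0.87 in liquid cultures, against -0.04 and -0.00 for the other chromosomes, but 0 of the 46 genes lie on it. Shares of all probe sets called between KV2668 and another strain thus include a chromosome that the 46 do not. KV68 solid replicate 3 stood apart, with correlations of 0.909 to 0.917 to its replicates, where all other pairs reached at least 0.993. Its mating-type means, 9.22 for a-cell and 9.05 for alpha-cell genes, lay between those of the other strains. Replicates 1 and 2 of KV68 gave 6.64 and 6.52 for a-cell and 12.52 and 12.61 for alpha-cell genes. The arrays of KV63 gave 6.85 to 7.94 and 12.29 to 12.46. The part of mating type, and of the differing chromosome, in the strain differences was not tested.

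The first comparison asks how colonies differed from liquid cultures of the same strain. In KV473, 2 of the 46 genes were higher in colonies, *ARG3* of arginine and *HIS4* of histidine synthesis, and 6 were lower, 4 of them aromatic genes (*TRP4*, *ARO2*, *ARO4* and *ARO7*), with *THR1* of threonine synthesis and *BAT2*, a branched-chain aminotransferase. The called share, 17.4%, was near the 17.9% of all tested probe sets, but it lay more on the lower side, where 13.0% of the 46 stood beside 6.67% of all, and less on the higher side, with 4.35% beside 11.2%. The median difference of the 46 was -0.39, against -0.16 over all probe sets, and 33 of the 46 differences were negative. The arrays of both media did not overlap for 38 genes (82.6%), much the same share as among all tested probe sets (82.5%). The lower count rests in part on 1 array, since without KV473 solid replicate 2 only 3 genes were lower, *TRP4*, *ARO2* and *BAT2* then having differences of -0.98, -0.91 and -0.91.

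In KV2668, 6 genes were higher in colonies and 4 were lower, together 21.7% beside 17.7% of all probe sets. The higher genes were *LEU1* and *ILV3* of the branched-chain pathway, *LYS4* of lysine, *ARG4* of arginine, *ARO3* of aromatic synthesis and *GLT1*, the glutamate synthase, 13.0% of the genes against 10.7% of all probe sets. The lower genes were *TRP2*, *ARO4*, *ARO7* and *THR1*, 8.70% against 6.95%. The median over the 46 was -0.25, against -0.10 over all, and the arrays did not overlap for 41 of them (89.1%, beside 82.2% of all). *ARO4*, *ARO7* and *THR1* were called lower in colonies in both strains, whereas the genes called higher in KV473 and in KV2668 had no gene in common. *HIS4* was also higher in colonies of KV2668, by 0.76, which stayed under the fold threshold. The overlap of calls was not counted over all probe sets.

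**Figure D1:**
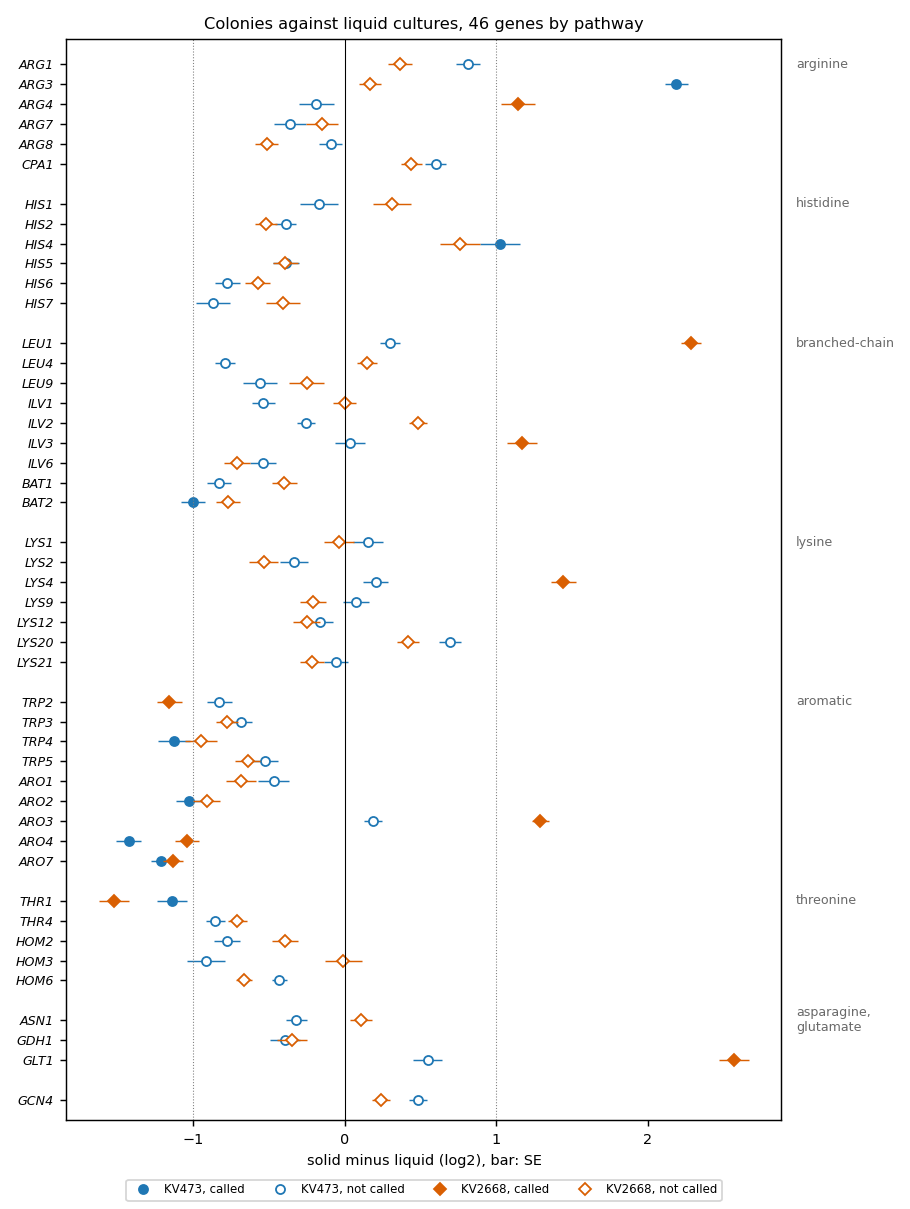
Difference between colonies and liquid cultures (log2, horizontal axis) for each of the 46 genes, grouped by pathway, in KV473 (circles) and KV2668 (diamonds); bars are the standard error of the fit and filled symbols are called genes. Most aromatic and threonine genes lie left of 0 in both strains, and *LEU1* (2.28) and *GLT1* (2.57) stand far to the right in KV2668 alone.

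Aromatic synthesis held the most genes called lower in colonies, 4 in KV473 and 3 in KV2668. It leads from the condensation of phosphoenolpyruvate and erythrose 4-phosphate through the shikimate route to chorismate, and from there to tryptophan or to phenylalanine and tyrosine. Of its 9 genes, 8 had negative differences in each strain, and the medians were -0.83 in KV473 and -0.91 in KV2668. Averaged over the 9 genes and set against each gene's mean over the 18 arrays, the level was 0.54 to 0.56 above that mean in liquid cultures of KV473 and 0.35 to 0.37 above it in those of KV2668. On all 12 solid arrays the average lay below it, at -0.44 to -0.11 in KV473, -0.32 to -0.29 in KV2668, -0.22 to -0.01 in KV63 and -0.29 to -0.05 in KV68. The media thus did not overlap on any array for this average.

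*ARO4* encodes the DAHP synthase that tyrosine inhibits, which opens the route. It measured 12.28, 12.29 and 12.11 in liquid cultures of KV473 and 10.77, 10.68 and 10.96 in its colonies. In KV2668 the liquid cultures gave a mean of 12.12 ± 0.10 (SD, n = 3) and the colonies 11.10, 11.03 and 11.09. No colony array of either strain reached a liquid array, with differences of -1.43 (SE 0.08, adjusted p = 1.88e-09) in KV473 and -1.04 (SE 0.08, adjusted p = 4.10e-08) in KV2668. *ARO7*, the chorismate mutase at the branch to phenylalanine and tyrosine, fell in both strains as well, by 1.21 (SE 0.07) and 1.13 (SE 0.07) on the log2 scale, from 9.89 to 9.99 over the 6 liquid arrays to 8.56 to 8.89 over the 6 colony arrays of these strains.

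The tryptophan branch went the same way with smaller or less even differences. *TRP2*, anthranilate synthase, was lower in colonies of KV2668 by a called difference of -1.16 (SE 0.08, adjusted p = 2.09e-08) and gave -0.83 in KV473, while *TRP4*, anthranilate phosphoribosyltransferase, was called in KV473 at -1.13 (SE 0.11, adjusted p = 2.93e-07) and gave -0.95 in KV2668. *ARO2*, the chorismate synthase, likewise passed in KV473 alone, with -1.03 (SE 0.09) there and -0.91 in KV2668. For these genes the difference between the strains was itself small, between -0.33 and 0.18, and none of them was called in the test of that difference. A call in a single strain is thus not a strain difference over the fold threshold. Without that threshold, 1 aromatic gene had a negative strain difference at an adjusted p under 0.05 by limma, and *TRP2* had the lowest value (-0.33). *TRP3*, *TRP5* and *ARO1* gave -0.47 to -0.78 in both strains without a call.

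The exception was *ARO3*, the isoenzyme of *ARO4* that phenylalanine inhibits. In KV2668 it rose from 10.68, 10.61 and 10.69 in liquid to 12.02, 11.97 and 11.86 in colonies, a difference of 1.29 (SE 0.06, adjusted p = 1.99e-10), or 2.44-fold. In KV473 the liquid cultures already stood at 11.38, 11.41 and 11.44 and the colonies at 11.59, 11.56 and 11.63, a difference of 0.18 (SE 0.06). The medium difference of *ARO3* was larger in KV2668 by 1.11 (SE 0.08, adjusted p = 4.97e-07), the strain differences being -0.75 in liquid medium and 0.36 on solid medium.

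Threonine synthesis had negative differences for all 5 of its genes in both strains, of which *THR1* alone was called. Medians were -0.86 in KV473 and -0.67 in KV2668, and the pathway average lay 0.42 to 0.62 above the 18-array mean of its genes on the 6 liquid arrays and -0.46 to -0.06 on the 12 solid ones. *THR1*, the homoserine kinase, was at 12.11, 12.15 and 12.22 in liquid cultures of KV473 and at 12.17, 12.14 and 12.13 in those of KV2668. Its colonies gave 11.19, 10.74 and 11.14 in KV473 and 10.66, 10.50 and 10.70 in KV2668. The liquid cultures of both strains thus shared a level, and the colonies lay below it, with differences of -1.14 (SE 0.10, adjusted p = 1.20e-07) in KV473 and -1.52 (SE 0.10, adjusted p = 6.74e-09, 2.88-fold) in KV2668. *THR4*, the threonine synthase, gave -0.86 and -0.71, and the genes of the upstream route from aspartate, which also serves methionine, gave -0.78 and -0.40 for *HOM2* and -0.43 and -0.67 for *HOM6*. *HOM3*, the aspartate kinase at the entry of that route, was the uneven gene of the group, with -0.92 in KV473 and -0.01 in KV2668, and a difference between the strains of 0.91 (SE 0.18, adjusted p = 7.59e-04) that stayed short of the fold threshold.

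Histidine and arginine synthesis held the genes that were higher in colonies of KV473. *HIS4*, which encodes a protein with several of the pathway's activities and is a classic reporter of Gcn4, measured 9.78, 9.80 and 9.82 in liquid cultures of KV473 and 10.99, 10.43 and 11.04 in its colonies. In KV2668 it gave 9.39, 9.49 and 9.47 in liquid and 10.44, 10.07 and 10.11 in colonies. Colonies were above liquid cultures on every array of both strains, by 1.02 (SE 0.13, adjusted p = 7.93e-06) in KV473 and by 0.76 (SE 0.13, adjusted p = 1.33e-04) in KV2668. The call in KV473 was narrow, the difference being 0.94 without its solid replicate 1 and 0.91 without replicate 3. Of the other 5 histidine genes, 4 had negative differences in both strains, down to -0.87 for *HIS7*, an imidazole glycerol phosphate synthase, in KV473 and -0.58 for *HIS6*, the isomerase, in KV2668. *HIS1*, the first enzyme of the pathway, gave -0.17 and 0.31. *HIS4* was thus the only gene of the pathway with a positive difference in KV473, and was joined by *HIS1* in KV2668, and the pathway medians were -0.39 and -0.40.

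Arginine was the pathway with the highest median in KV473 (0.25), and it held the genes with the most unlike responses. *ARG3*, the ornithine carbamoyltransferase, stood at 8.96, 8.91 and 8.94 in liquid cultures of KV473 and at 11.25, 10.94 and 11.18 in its colonies. That is a rise of 2.19 (SE 0.07, adjusted p = 9.28e-12), or 4.55-fold, the largest of the 46 in this strain. In KV2668 the liquid cultures gave 9.99, 10.07 and 10.05 and the colonies 10.15, 10.28 and 10.18, a difference of 0.17 (SE 0.07, adjusted p = 0.0555). *ARG3* was thus higher in KV2668 than in KV473 in liquid medium, by 1.10 (SE 0.07, adjusted p = 2.81e-08), while on solid medium the difference was -0.92 (SE 0.07, adjusted p = 2.25e-07). The test of the difference between the medium effects gave -2.02 (SE 0.11, adjusted p = 3.63e-08).

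*ARG4*, the argininosuccinate lyase that completes the pathway, had the opposite pattern. It measured 11.90, 11.99 and 11.96 in liquid cultures and 11.95, 11.41 and 11.93 in colonies of KV473, with a difference of -0.19 (SE 0.11). In KV2668 it rose from 11.30, 11.22 and 11.27 to 12.50, 12.43 and 12.30, by 1.14 (SE 0.11, adjusted p = 4.81e-07). The medium effects differed by 1.33 (SE 0.16, adjusted p = 1.94e-05), *ARG4* being lower in KV2668 than in KV473 in liquid medium (-0.69) and higher on solid medium (0.64). *CPA1*, a subunit of carbamoyl phosphate synthetase, gave 0.60 and 0.44, and *ARG7* and *ARG8*, which act in the acetylated steps before ornithine, gave -0.36 and -0.09 in KV473 and -0.15 and -0.52 in KV2668.

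**Figure D2:**
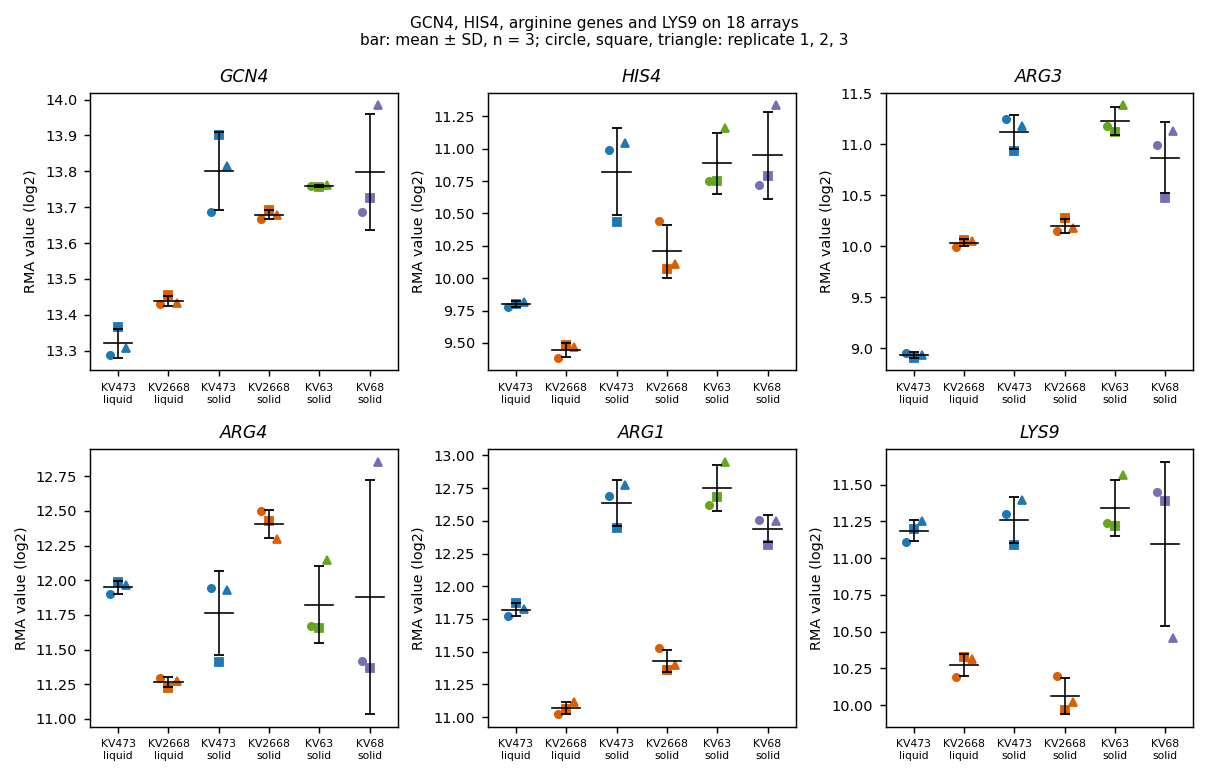
RMA log2 value (vertical axes, each with its own range) of *GCN4*, *HIS4*, *ARG3*, *ARG4*, *ARG1* and *LYS9* on the 18 arrays by strain and medium; symbols are replicates and bars are the mean and SD of 3 arrays. *ARG3* is lowest in liquid cultures of KV473, *ARG1* and *LYS9* are lower in KV2668 than in KV473 in both media, and KV68 solid replicate 3 stands apart for *ARG4* and *LYS9*.

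*GCN4* mRNA itself was not called in any comparison. It was 13.29, 13.37 and 13.31 in liquid cultures of KV473, 13.43, 13.46 and 13.43 in those of KV2668, 13.69, 13.90 and 13.82 in colonies of KV473 and 13.67, 13.69 and 13.68 in colonies of KV2668. Colonies of KV63 gave 13.76 on each of the 3 arrays, and those of KV68 gave 13.69, 13.73 and 13.98. All solid arrays thus lay above all liquid arrays, with differences of 0.48 (SE 0.06, adjusted p = 4.97e-06, 1.39-fold) in KV473 and 0.24 (SE 0.06, adjusted p = 2.24e-03, 1.18-fold) in KV2668. Between KV2668 and KV473 it differed by 0.12 in liquid medium and -0.12 on solid medium, neither of which passed an adjusted p of 0.05. On KV473 solid replicate 2, the array with the highest *GCN4* of its group, the average over the 46 genes was the lowest of the group, at -0.22 against 0.03 and 0.07 on the other two.

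Single genes of branched-chain, lysine, glutamate and arginine synthesis were called between KV2668 and KV473 in liquid medium. There, *LEU1*, *ILV3*, *LYS4* and *GLT1* were lower in KV2668 than in KV473 and *ARG3* was higher, together 10.9% of the 46 beside 8.28% of all probe sets, with 8.70% lower beside 3.78% and 2.17% higher beside 4.5%. The median over the 46 was -0.26 against 0.02 over all, and the arrays of the strains did not overlap for 34 genes (73.9%, beside 65.4% of all). The 4 lower genes encode enzymes known to carry an iron-sulphur cluster, and they are the members of the 46 known for it, a grouping made after their values were seen. Leu1 is the isopropylmalate isomerase of leucine synthesis, Ilv3 the dihydroxyacid dehydratase common to valine, isoleucine and leucine, Lys4 the homoaconitase of lysine synthesis and Glt1 the glutamate synthase that forms glutamate from glutamine and 2-oxoglutarate.

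*LEU1*, on chromosome VII, measured 8.59, 8.53 and 8.47 in liquid cultures of KV2668 and 10.37, 10.35 and 10.22 in those of KV473. On solid medium it was 10.87, 10.82 and 10.76 in KV2668 and 10.50, 10.70 and 10.62 in KV473. The liquid cultures of KV2668 were thus below every other array, and their difference from KV473 in the same medium was -1.78 (SE 0.07, adjusted p = 2.50e-10, 3.44-fold). Against its own colonies the rise was 2.28 (SE 0.07, adjusted p = 2.43e-12, 4.87-fold), while KV473 gave 0.30 (SE 0.07) between media.

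*GLT1*, on chromosome IV, had the largest strain difference of the 46 in liquid medium and the largest medium difference in KV2668. It was 8.93, 8.55 and 8.52 in liquid cultures of KV2668 and 10.68, 10.68 and 10.83 in those of KV473, a difference of -2.06 (SE 0.10, adjusted p = 2.02e-09, 4.18-fold). Colonies stood at 11.31, 11.15 and 11.24 in KV2668 and at 11.32, 11.17 and 11.34 in KV473, and these overlapped. The medium difference was 2.57 (SE 0.10, adjusted p = 4.09e-11, 5.93-fold) in KV2668 and 0.54 (SE 0.10) in KV473. *GDH1*, the glutamate dehydrogenase of the other route to glutamate, had no comparable gap, at 12.31, 12.52 and 12.61 in liquid cultures of KV2668 and 12.96, 12.94 and 13.11 in those of KV473, a difference of -0.52 (SE 0.10).

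*LYS4*, also on chromosome IV, gave 9.04, 8.84 and 8.77 in liquid cultures of KV2668 against 9.97, 10.02 and 10.04 in those of KV473, and 10.24, 10.47 and 10.28 against 10.23, 10.12 and 10.29 in the colonies. The strain difference in liquid was -1.12 (SE 0.08, adjusted p = 5.07e-08) and the medium difference in KV2668 was 1.44 (SE 0.08, adjusted p = 1.68e-09). *ILV3*, on chromosome X, gave 10.21, 10.06 and 10.15 against 11.19, 11.25 and 11.14 in liquid, and 11.43, 11.17 and 11.31 against 11.35, 10.97 and 11.36 in colonies. Its difference in liquid, -1.06 (SE 0.10, adjusted p = 5.85e-07), was the smallest of the 4 and became -0.96 when each chromosome was centred on its median. In all 4 genes the 3 liquid arrays of KV2668 lay below the other 15 arrays, colonies of KV63 and KV68 included.

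**Figure D3:**
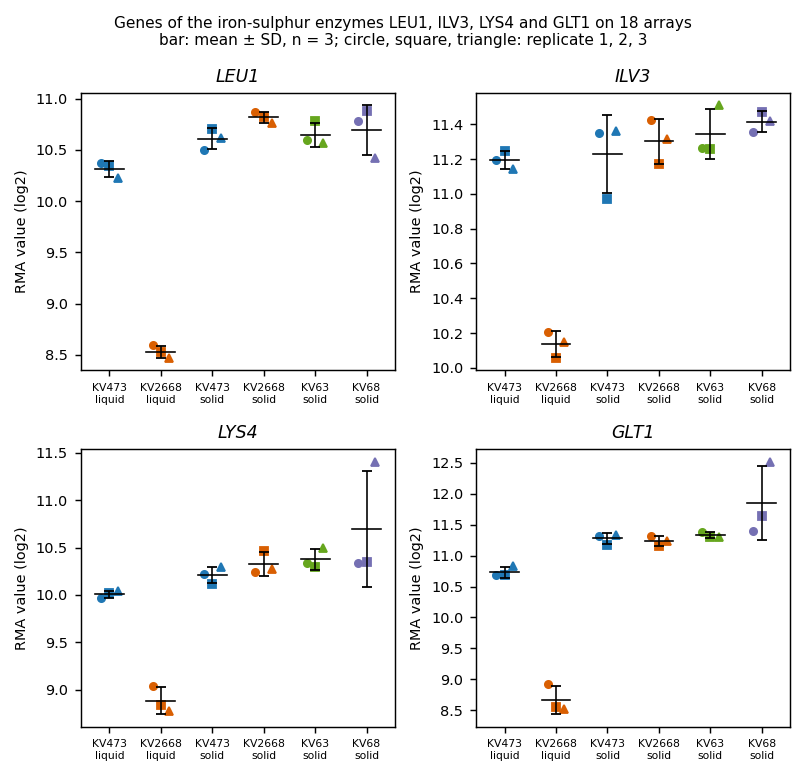
RMA log2 value (vertical axes, each with its own range) of *LEU1*, *ILV3*, *LYS4* and *GLT1* on the 18 arrays by strain and medium; symbols are replicates and bars are the mean and SD of 3 arrays. Liquid cultures of KV2668 are lowest in each panel, from 8.47 to 8.59 for *LEU1*, and KV68 solid replicate 3 is the highest array for *LYS4* and *GLT1*.

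For these 4 genes the median strain difference was -1.45 in liquid medium and 0.09 on solid medium. For the other 42 it was -0.22, within a range of -0.91 to 1.10, and -0.20. The 4 were grouped after their values were seen and are all the genes called lower in liquid medium. Their contrast with the other 42 in that medium follows from this choice. The medium differences of KV2668 use the same liquid arrays. Between colonies and liquid cultures the 4 had medians of 0.25 in KV473 and 1.86 in KV2668, and the other 42 had -0.41 and -0.37. The medium effects differed between the strains by 1.99 (SE 0.10, adjusted p = 2.40e-08) for *LEU1*, 2.02 (SE 0.14, adjusted p = 2.84e-07) for *GLT1*, 1.24 (SE 0.11, adjusted p = 2.43e-06) for *LYS4* and 1.13 (SE 0.14, adjusted p = 2.33e-05) for *ILV3*. With *ARG4* and *ARO3* these made 6 genes with a more positive medium effect in KV2668, and *ARG3* was the only gene of the 46 called with a more negative one, together 15.2% beside 7.15% of all probe sets (13.0% beside 4.22% and 2.17% beside 2.93%).

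The other genes of branched-chain synthesis had smaller differences than *LEU1* and *ILV3*. The average over all 9 genes of the pathway, *LEU1* and *ILV3* included, was 0.39 to 0.41 above the 18-array mean in liquid cultures of KV473. In those of KV2668 it was at -0.31 to -0.29. There *LEU1*, at a mean of 8.53 against 10.27 over the 18 arrays, and *ILV3*, at 10.14 against 11.10, lay farthest below. *LEU4*, *LEU9*, *ILV1* and *ILV2* lay below their 18-array means by less, and *ILV6*, *BAT1* and *BAT2* lay above theirs. All 9 genes had a negative strain difference in liquid medium. *LEU4* came closest, with -0.88 (SE 0.07, adjusted p = 6.79e-08) in liquid and 0.06 on solid medium. *ILV1*, threonine deaminase, gave -0.47, *ILV2*, the catalytic subunit of acetolactate synthase, -0.38, and *ILV6*, its regulatory subunit, -0.25. In lysine synthesis, *LYS1*, *LYS2* and *LYS12*, the saccharopine dehydrogenase of the last step, the aminoadipate reductase and the homoisocitrate dehydrogenase, gave -0.13 to 0.01 in the same comparison, and *LYS20* and *LYS21*, the homocitrate synthases, 0.06 and -0.23. *LYS9* gave -0.91, close to the values of *LYS4* and *ILV3*.

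On solid medium, limma called 2 of the 46 genes between KV2668 and KV473, both lower in KV2668, or 4.35% beside 6.14% of all probe sets (1.79% lower and 4.35% higher). The share called higher includes chromosome XII, with a median difference of 0.81, where none of the 46 lies. There were 0 higher calls, with 9 genes at an unadjusted p under 0.05 in that direction and 22 in the lower one. The arrays did not overlap for 24 genes (52.2%, beside 62.1% of all), and the median was -0.15 against -0.01 over all. Without the fold threshold the counts came to 9 higher and 21 lower on solid medium and to 2 and 25 in liquid medium. The smaller number of calls on solid medium thus belongs to that threshold. These counts were not set beside a share of all probe sets and only describe the 46.

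The called genes were *ARG1*, the argininosuccinate synthetase, and *LYS9*, the saccharopine dehydrogenase that forms saccharopine from aminoadipate semialdehyde. *ARG1* measured 11.53, 11.36 and 11.40 in colonies of KV2668 and 12.69, 12.44 and 12.78 in those of KV473, a difference of -1.21 (SE 0.08, adjusted p = 4.19e-08, 2.31-fold). In liquid cultures it was 11.03, 11.06 and 11.11 against 11.77, 11.87 and 11.82, a difference of -0.75 (SE 0.08, adjusted p = 2.22e-06). *LYS9* gave 10.20, 9.97 and 10.02 against 11.30, 11.09 and 11.40 in colonies, a difference of -1.20 (SE 0.09, adjusted p = 7.34e-08). In liquid cultures *LYS9* gave 10.19, 10.33 and 10.31 against 11.11, 11.20 and 11.25, a difference of -0.91 (SE 0.09, adjusted p = 6.02e-07). Both genes were thus lower in KV2668 in either medium with no overlap of arrays. The 4 iron-sulphur genes, in contrast, were called between the strains in liquid medium only, and of them *LEU1* was higher in KV2668 on solid medium without overlap, at 0.21 (SE 0.07, adjusted p = 0.0166). The medium effects of *ARG1* and *LYS9* differed between the strains by -0.45 (SE 0.11) and -0.29 (SE 0.12), both short of the fold threshold and so not called. *ARG3* followed in colonies with -0.92, *HOM3* had the highest value of the 46 with 0.69 (SE 0.12), and *HIS4* gave -0.62.

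The members without a call stayed inside 1 log2 unit between these strains in both media. *ASN1* came next to *LEU4* in liquid medium, with 10.51, 10.50 and 10.49 in liquid cultures of KV2668 against 11.37, 11.40 and 11.34 in those of KV473, a difference of -0.87 (SE 0.07, adjusted p = 1.65e-07), and -0.44 on solid medium. In histidine synthesis the liquid differences ran from -0.49 for *HIS1* to -0.13 for *HIS7*, which was the highest of the pathway on solid medium with 0.33. In threonine synthesis they ran from -0.35 for *HOM2* to 0.00 for *THR4*, and in aromatic synthesis *TRP5*, the tryptophan synthase, was highest with 0.16. On solid medium *ILV2* (0.36) and *ILV6* (-0.42), the subunits of acetolactate synthase, stood at opposite ends of the branched-chain genes, and *TRP2* (-0.37) was the lowest aromatic gene. Lysine synthesis had no further call between media either, *LYS2* being its lowest gene with -0.33 in KV473 and -0.54 in KV2668.

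**Figure D4:**
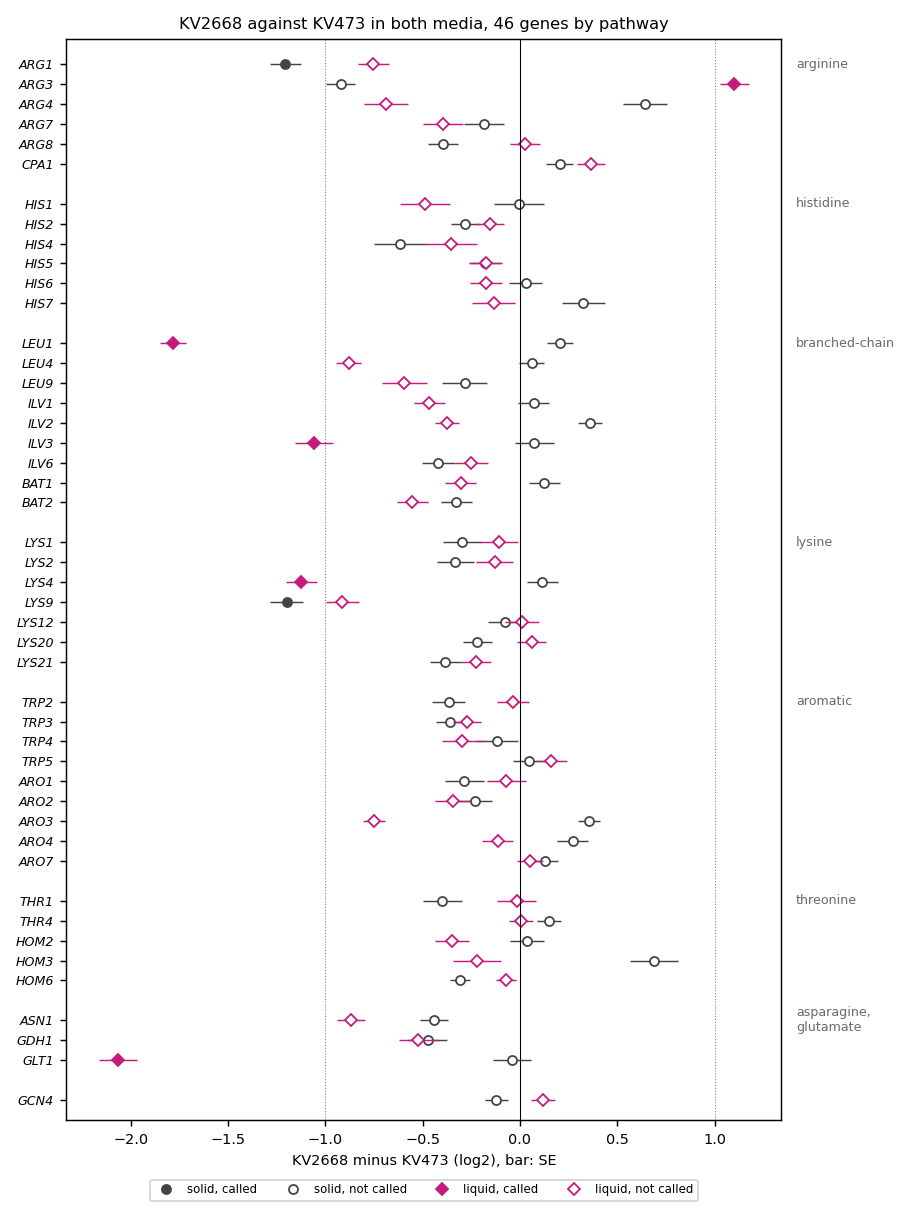
Difference between KV2668 and KV473 (log2, horizontal axis) for each of the 46 genes, grouped by pathway, on solid (circles) and in liquid medium (diamonds); bars are the standard error of the fit and filled symbols are called genes. In liquid medium *GLT1* (-2.06) and *LEU1* (-1.78) lie farthest to the left and *ARG3* (1.10) to the right, and on solid medium only *ARG1* and *LYS9* pass -1.

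Colonies of the other strain pairs allowed the strain differences to be set beside each other, though all comparisons with KV2668 or KV473 share their arrays. KV63 and KV473, which carry the same label, gave 0 calls by limma, 0 genes at an unadjusted p under 0.05 and 0% of all probe sets called. Their differences were -0.04 to 0.23, positive for 45 of the 46 genes, with a median of 0.08 against 0.00 over all probe sets. Their arrays did not overlap for 2 genes (4.35%, beside 7.49% of all). KV68 and KV63, which carry different labels, gave 0 calls as well, beside 0.442% of all probe sets, with 3 genes higher and 5 lower at an unadjusted p under 0.05. The arrays of KV68 and KV63 did not overlap for 9 genes (19.6%, beside 24.4% of all). *ARG1* and *LYS9* differed by -0.31 and -0.24 between KV68 and KV63, neither with an adjusted p under 0.05, where the same labels in KV2668 and KV473 gave -1.21 and -1.20. Without KV68 solid replicate 3 the values were -0.34 (adjusted p = 0.0318) for *ARG1* and 0.08 (adjusted p = 0.631) for *LYS9*.

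KV68 and KV2668, both labelled wild-type, differed in 3 genes, all higher in KV68, 6.52% beside 5.22% of all probe sets (1.51% higher and 3.71% lower). Replicates 1 and 2 of KV68 differed from KV2668 in mating-type genes as well, and chromosome XII probe sets had a median difference of -0.80. These cannot be told apart from other differences between the 2 strains. They were *ARG1* with 1.01 (SE 0.10, adjusted p = 1.27e-06), *LYS9* with 1.04 (SE 0.19, adjusted p = 6.17e-04) and *GDH1* with 1.07 (SE 0.25, adjusted p = 3.61e-03), and 0 were lower by limma, with 5 at an unadjusted p under 0.05. The arrays did not overlap for 26 genes (56.5%, beside 43% of all). These calls moved with KV68 solid replicate 3, without which *LYS9* was the only gene called higher (1.36), *ARG1* gave 0.98, *GDH1* gave 0.62, and *ARG4* (-1.01) and *HOM3* (-1.21) were called lower. That array read 14.10 for *GDH1*, 12.40 for *ASN1*, the asparagine synthetase, 12.52 for *GLT1* and 12.86 for *ARG4*, where the other arrays of KV68 read 12.77 and 12.72, 11.01 and 10.94, 11.40 and 11.63, and 11.42 and 11.37. It was above its replicates for each of these, and below them for *LYS9*, at 10.46 against 11.45 and 11.39. Whether its mixed mating-type values bear on these levels was not tested. The difference between the labels was also compared between the pairs KV2668 and KV473, and KV68 and KV63, after the data had been seen. It was more positive in the first pair for *HOM3* and more negative for *GDH1*, 4.35% of the genes beside 4.61% of all probe sets (2.17% beside 3.58% and 2.17% beside 1.03%). Both calls were lost when the 12 solid arrays were fitted alone, and leaving out each of these arrays in turn ended the call of *HOM3* in 5 of 12 fits and that of *GDH1* in 10.

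Isoenzyme pairs, in which separate genes encode enzymes for the same step, did not always move together. *ARO3* and *ARO4* parted in both strains, with 0.18 and -1.43 between media in KV473 and 1.29 and -1.04 in KV2668. *LYS20* and *LYS21*, the homocitrate synthases that open lysine synthesis, gave 0.69 and -0.06 in KV473 and 0.42 and -0.22 in KV2668, so that *LYS20* was the higher-lying member of its pathway in colonies of KV473 without being called. *BAT1* and *BAT2*, the mitochondrial and cytosolic branched-chain aminotransferases, ran in parallel, with -0.83 and -1.001 in KV473 and -0.40 and -0.77 in KV2668. *LEU4* and *LEU9*, the isopropylmalate synthases, gave -0.79 and -0.56 in KV473 and 0.15 and -0.25 in KV2668. The differences between isoenzymes were not tested, since they belong to different probe sets.

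**Figure D5:**
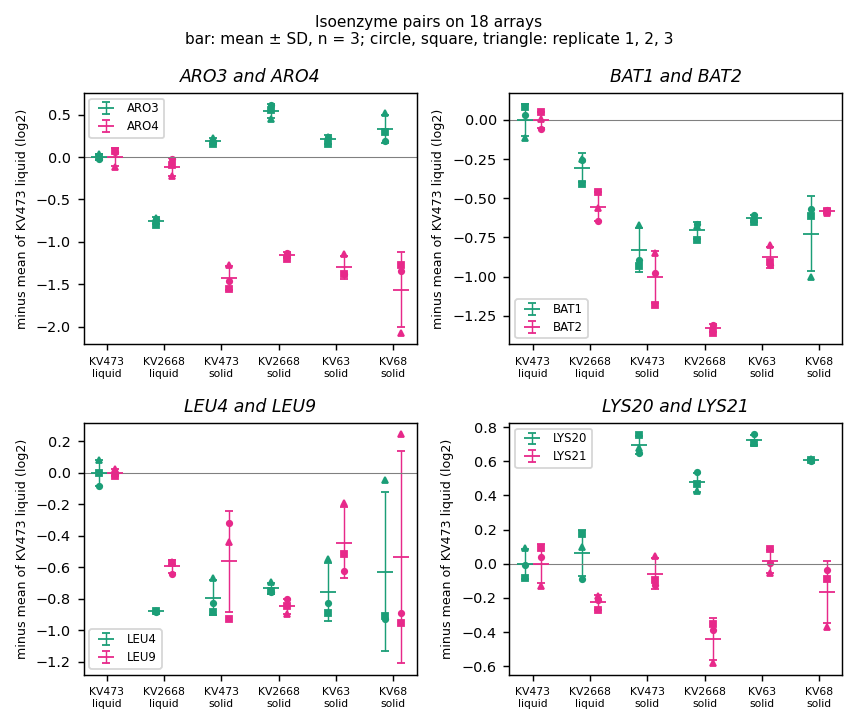
RMA log2 value minus the mean of the KV473 liquid arrays (vertical axes, log2) for the isoenzyme pairs *ARO3* and *ARO4*, *BAT1* and *BAT2*, *LEU4* and *LEU9*, and *LYS20* and *LYS21* on the 18 arrays; symbols are replicates and bars are the mean and SD of 3 arrays. *ARO4* lies more than 1 below its liquid level on all 12 solid arrays, where *ARO3* lies above it.

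Further genes of amino acid metabolism with a probe set, 43 of 46 listed, were measured in the same fits. Among 17 other biosynthetic genes, *GDH3*, another NADP-dependent glutamate dehydrogenase known from growth on non-fermentable carbon, was higher in colonies by 3.04 (SE 0.07, adjusted p = 1.15e-13) in KV473 and 2.88 (SE 0.07, adjusted p = 2.44e-13) in KV2668. *AAT1*, the mitochondrial aspartate aminotransferase, was lower, at -1.46 and -1.17. *LYS5* (1.01) was also higher and *ASN2* (-1.22) lower in KV473, and *ARO8* (-1.14), *PRO1* (-1.11) and *PRO3* (-1.17) were lower in KV2668.

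Among 18 regulators, *PCL5*, a Gcn4 target whose cyclin promotes the degradation of Gcn4, was higher in colonies, by 1.94 (SE 0.16, adjusted p = 8.44e-08) in KV473 and 1.27 (SE 0.16, adjusted p = 5.96e-06) in KV2668. *GCN1*, which is needed to activate Gcn2, was lower, at -1.13 and -1.54. *RTG1*, of the retrograde pathway that sustains glutamate synthesis, was higher by 1.45 and 2.03. *DAL80*, a repressor of nitrogen catabolic genes, was below its array's background on all 6 liquid arrays, and with these arrays set to their background it was at least 10.8-fold higher in colonies of KV473 and at least 2.46-fold higher in those of KV2668. In colonies it was lower in KV2668 than in KV473, at -2.20. *GAT1*, an activator of nitrogen catabolic genes, was higher in colonies of KV473 by 1.16. *LEU3*, on chromosome XII, was higher in KV2668 in liquid medium by 1.30 (SE 0.07, adjusted p = 2.75e-09), and on solid medium it gave 0.90 (adjusted p = 9.24e-08), while *LEU1* and *LEU4* stood at -1.78 and -0.88 in liquid and at 0.21 and 0.06 on solid medium. Its part in those values was not tested.

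Of 8 genes of amino acid breakdown, 5 were called between media in KV473 and 2 in KV2668, beside 17.9% and 17.7% of all probe sets. *CHA1*, the serine and threonine deaminase, stood at 9.23, 8.83 and 9.12 in liquid cultures of KV473 and at 11.65, 12.04 and 12.04 in those of KV2668, a difference of 2.85 (SE 0.11, adjusted p = 3.27e-10). In colonies of both strains it was 11.94 to 12.12. *PUT1*, the proline oxidase on chromosome XII, was higher in colonies of KV2668 than in its liquid cultures by 3.15 (SE 0.10), and *CAR1*, the arginase, was lower in colonies of KV473, at -1.63 (SE 0.09). *CAR2* (-1.20) and *PUT2* (-1.13) were called lower in colonies of KV473 too. In colonies, *CAR2* (1.43) and *PUT1* (1.46), both on chromosome XII, were called higher in KV2668 than in KV473. *ARO9*, an aromatic aminotransferase, was lower in colonies of both strains, at -1.29 (SE 0.22) in KV473 and -1.11 (SE 0.22) in KV2668. Its liquid cultures of KV2668 were uneven, at 11.10, 12.13 and 12.12.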

How the data were processed

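Total RNA was extracted with hot phenol and hybridised to Affymetrix Yeast Genome 2.0 arrays. The values deposited by the authors are log2 intensities from RMA, which corrects background, normalizes between arrays and combines the probes of each probe set; the sources used here do not state its version. They were used unchanged. Of 7686 probe sets, 6145 carry 1 gene symbol in the platform annotation, 1 carries several and 1540 carry none. *S. cerevisiae* has 5469 of those with 1 symbol, and *S. pombe*, also on the array, has 676. An array's background was the 95th percentile of its *S. pombe* probe sets (4.34 to 4.56), and probe sets of *S. cerevisiae* that exceeded it on 3 or more arrays, 5424 in all, entered the tests. The number of arrays limits the precision.

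Samples were grouped by the strain and medium in their labels. Differences were fitted in R 4.3.3 by limma 3.58.1 (lmFit, then eBayes), on the 12 arrays of KV473 and KV2668 (8 residual degrees of freedom) or, where KV63 or KV68 entered, on all 18 (12 residual degrees of freedom), with Benjamini-Hochberg adjustment over the 5424 probe sets. The script was tested on simulated data. The 46 genes, the lists and the rules were chosen with earlier results of these data known. Genes named are *GCN4*, those called, the highest and lowest of each pathway and the isoenzyme pairs; genes named in passing beside these were chosen after their values were seen, as were the iron-sulphur groups. Same-numbered samples of KV68 and KV63 deviated together (correlations of 0.27 to 0.52), so the numbers were taken to pair these groups. No other comparison met the rule. A replicate block over all arrays of a fit leaves each difference as it is. It could change no call between KV68 and KV63, whose differences ran from -0.39 to 0.56. P-values printed or counted, adjusted or not, are from fits without the block, so those between KV68 and KV63 do not use this pairing. Alternatives were centring of arrays or chromosomes, array weights, other sample sets, the threshold, the replicate block and leaving out each array. Motifs of promoters were not analysed here.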

Additional observations from a re-analysis of the deposited data

Results flagged for a closer look

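The difference between colonies and liquid cultures was tested against strain with an interaction term, and it differed between KV2668 and KV473 for 7 of the 46 genes. It was more positive in KV2668 for *GLT1* by 2.02, for *LEU1* by 1.99, for *ARG4* by 1.33, for *LYS4* by 1.24, for *ILV3* by 1.13 and for *ARO3* by 1.11. It was more negative in KV2668 for *ARG3*, at -2.02.

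On solid medium the difference between the strains labelled wild-type and mutant was compared between the pairs KV2668 and KV473, and KV68 and KV63, a comparison added after the data had been seen. It differed for *HOM3* by 1.07 (SE 0.32, adjusted p = 0.0245) and for *GDH1* by -1.03 (SE 0.36, adjusted p = 0.0472), 4.35% of the 46 genes beside 4.61% of all probe sets. Without KV68 solid replicate 3, *GDH1* gave -0.58 and was not called, and *ARG4* (1.08) and *LYS9* (-1.28) were. Fitted on the 12 solid arrays alone, neither *HOM3* (adjusted p = 0.0820) nor *GDH1* (adjusted p = 0.120) was called.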

How the results depend on the processing

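Of 6854 values of single genes under all alternatives, 6637 kept their call or lack of one, 169 became called, 149 of them by dropping the fold threshold, and 48 lost the call, with no called value changing sign. Without the fold threshold the calls numbered 10 higher and 28 lower between media in KV473, 13 and 25 in KV2668, 9 and 21 between KV2668 and KV473 on solid and 2 and 25 in liquid medium, 16 and 8 for the strain by medium interaction, 1 higher for KV68 against KV63, 17 and 3 for KV68 against KV2668, and 2 and 6 for the difference between the strain pairs. These counts without the threshold were not set beside a share of all probe sets. For KV68 against KV2668, centring each chromosome on its median left 1 higher gene, array weights made 1 lower, and the 6 arrays of the pair alone left 1 higher. For the difference between the strain pairs, chromosome centring left 0 lower, array weights gave 2 lower, and the 12 solid arrays alone gave 0 in either direction; the cause was not tested.

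Leaving out each array in turn gave 1 to 2 higher and 3 to 7 lower genes between media in KV473, 6 and 3 to 4 in KV2668, 0 higher and 2 to 3 lower between these strains on solid and 1 and 4 in liquid medium, 6 to 7 and 1 for the interaction, 1 to 3 and 0 to 2 for KV68 against KV2668, 0 to 2 in each direction between the pairs, and 0 for KV68 against KV63 and KV63 against KV473. Centring each array on its median gave *ARO2* -0.98 and *BAT2* -0.96 in KV473. Chromosome centring gave *THR1* -0.98 in KV473 and *ARO4* -0.90 in KV2668, and *ARO4* was uncalled there with array weights (-0.996) or without KV2668 liquid replicate 1 (-0.995). With the replicate block, which leaves each difference as it is, all 414 values of single genes kept their call or lack of one. Every count was unchanged. The pairing of numbers rests on no label, and apart from KV68 and KV63 correlations ran from -0.297 to 0.379.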

Other observations

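Other iron-sulphur enzymes outside amino acid synthesis, 6 with a probe set, were chosen after values of these data were seen. In liquid medium each had a negative difference of KV2668 from KV473, with a median of -1.07. *BIO2*, the biotin synthase, gave -1.70, *LIP5*, the lipoate synthase, -1.70, and *RIP1*, the Rieske protein of the respiratory chain, -1.14, and these 3 were called, beside 3.78% of all probe sets called lower in that comparison. *SDH2* of succinate dehydrogenase gave -0.99, *MET5* of sulphite reductase -0.87 and *ACO1*, the aconitase, -0.43. On solid medium their median was -0.04. Between colonies and liquid cultures the median was 1.10 in KV2668 and 0.01 in KV473. *SDH2* and *ACO1* lie on chromosome XII.

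The 10 listed genes of the iron regulon, which serve iron uptake and sparing and were chosen in the same way, all had negative differences between colonies and liquid cultures in both strains, with medians of -1.70 and -1.47. Of these, 9 were called lower in KV473 and 8 in KV2668, beside 6.67% and 6.95% of all probe sets. In liquid medium *ARN2* (1.33) and *TIS11* (1.60, on chromosome XII) were higher and *FIT1* (-1.20) lower in KV2668 than in KV473, and on solid medium 8 of the 10 differences were positive and 5 were called higher, beside 4.35% of all probe sets. Both groups were chosen with values known, so their counts only describe the listed genes, and the shares of all probe sets are no baseline for them. The part of either group in the levels of *LEU1*, *ILV3*, *LYS4* and *GLT1* was not tested.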
